A study of Mus musculus with 4 samples.

Results

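The genes described here are the integrin subunits, the adaptor and signalling proteins of focal adhesions, and both discoidin domain receptors, as measured in mouse growth plate cartilage. Members were chosen by gene symbol, with earlier results of these data known. They were every Itga and Itgb subunit together with talins, vinculin, kindlins, paxillin, the ILK complex and related names. They came to 41 of the 18193 genes measured, read by 102 of the probe sets on the array. Itga11, Itgad, Fermt1 and Ptk2 are not analysed here.

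The tested samples, called Cilia-deleted, were 2 arrays from Col2aCre;Ift88fl/fl mice, in which Cre recombinase driven by a type II collagen promoter removes Ift88 in cartilage. The others, called Control, were 2 arrays from mice labelled wild-type. All mice were C57BL/6 at postnatal day 7, and the tissue was the proliferative zone, the layer of the growth plate where chondrocytes divide. It was taken out by needle from sections of 40 µm through the proximal tibia and the distal femur. From each sample 50 ng of total RNA was amplified and hybridised to an Affymetrix array. Ift88 encodes a protein of intraflagellar transport, the machinery that builds the primary cilium. A Cre of this kind acts in Col2a-expressing cells of every zone from the time the promoter is on, so the labels do not limit the loss to the proliferative zone or to the day of sampling.

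Integrins are receptors made of 1 alpha and 1 beta subunit that hold cells to the extracellular matrix. Inside the cell their tails bind talin and kindlin, which switch the receptor on, and vinculin, paxillin, focal adhesion kinases and the ILK, PINCH and parvin complex, which tie it to actin and to signalling. In cartilage they bind collagen, fibronectin and laminin and are known for their part in the shape and stacking of growth plate chondrocytes. A few integrins that hold Itgav, among them its dimer with Itgb8, also bind the latent form of TGF-beta and help to release the active growth factor.

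The deposited values are log2 values from which each probe set's median over the 4 arrays had been subtracted. They give differences between arrays and no levels, and no gene's level can be set against another's. A value given here for an array is therefore its log2 distance from that median, and a difference is the mean of the Cilia-deleted arrays minus the mean of the Control arrays, with n = 2 per group. Differences were tested with limma. P values were adjusted by the method of Benjamini and Hochberg across the 18193 genes, and a gene passed at an adjusted p under 0.05.

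Several facts of the whole set bear on every value below. Ift88 stood at 0.22 and -0.07 in the Cilia-deleted arrays, against 0.07 and -0.08 in the Control arrays (difference 0.08, SE 0.15). Its probe sets were not placed against the deleted part of the gene, so this value checks neither the deletion nor the labels. Xist, the RNA of the inactive X chromosome, was lower by 7.36 on the log2 scale in the Cilia-deleted arrays and the Y-linked gene Eif2s3y was higher by 3.34 (adjusted p = 9.275e-05 and 0.00876), so genotype and sex by these genes fall on the same arrays and cannot be told apart. Control 1 stood apart from the other arrays, with a score of 30.8 on the first principal component against -19 to -3.4 for the rest. All 10 chondrocyte marker genes were measured, 8 of them above 0 and 2 below in Cilia-deleted minus Control, but without levels the cell type cannot be checked. Each array is a bulk sample, in which fewer cells of a type and less RNA per cell cannot be told apart.

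Of the 41 genes, 0 passed the threshold, where 2 of all genes did (0.0110%). These 2 were the sex-linked genes Xist and Eif2s3y, and 0 genes passed with those on X and Y left out. Tested by single probe set, 0 of the 102 passed, where 0.0444% of all 45037 probe sets did. The largest difference by far was that of Itgb8, which was lower in the Cilia-deleted arrays by 2.13 on the log2 scale, 5.48 times the size of the next largest. Its partner Itgav had a difference of 0.01. The promoter windows that RefSeq gives for these genes, 1 each, are shown because the results turn on this pair, a beta subunit whose groups lay far apart and an alpha partner whose groups overlapped. Each holds 250 bases before and 50 bases after a transcript start in GRCm38.p6. The transcript start in the Itgb8 window is the first base of the gene, while that in the Itgav window lies inside the gene, downstream of its first base at 83722303. The Itgb8 window lies at chr12:119238227-119238526 on the minus strand and the Itgav window at chr2:83724147-83724446 on the plus strand, both are written 5′ to 3′ on the gene's strand, and capitals mark a CCAAT box in Itgb8 and a GC box in Itgav.
Itgb8: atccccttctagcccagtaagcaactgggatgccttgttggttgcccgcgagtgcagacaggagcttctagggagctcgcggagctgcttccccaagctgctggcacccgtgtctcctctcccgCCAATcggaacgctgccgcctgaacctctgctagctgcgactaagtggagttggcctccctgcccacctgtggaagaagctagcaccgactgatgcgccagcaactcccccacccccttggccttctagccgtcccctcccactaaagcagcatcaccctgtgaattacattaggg
Itgav: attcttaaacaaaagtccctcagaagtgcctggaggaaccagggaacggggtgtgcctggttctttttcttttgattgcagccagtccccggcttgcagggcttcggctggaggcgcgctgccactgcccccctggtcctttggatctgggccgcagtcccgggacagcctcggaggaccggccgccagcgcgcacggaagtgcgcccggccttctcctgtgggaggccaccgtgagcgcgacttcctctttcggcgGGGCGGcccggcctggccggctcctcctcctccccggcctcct

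Both windows are rich in G and C, with 60.7% in Itgb8 and 67.3% in Itgav, against a median of 52.7% over the 32851 RefSeq promoter windows of the mouse. CpG pairs numbered 13 in the Itgb8 window and 24 in the Itgav window, against a median of 7. The letters CCAAT, read on both strands, stood at positions -126 to -122 from the transcript start in the Itgb8 window and are found in 37.4% of all windows. The letters GGGCGG stood 7 to 12 bases after the transcript start in the Itgav window and are found in 35.7%. The GLI motif GACCACCCA was in neither window (0.253% of all hold it), and neither was the AP-1 motif TGANTCA (7.81% of all hold it). These matches describe the letters of the windows and nothing about binding. A window was at hand for 29 of the 41 genes.

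Itgb8 encodes a beta subunit known to pair with Itgav alone. It is read by a single probe set here and spans 119162803 to 119238276 on chromosome 12 (GRCm38.p6). It was at -0.82 and -1.06 in the Cilia-deleted arrays, against 1.56 and 0.82 in the Control arrays. Both Cilia-deleted arrays were low and both Control arrays high, so the groups did not overlap, and the arrays of one genotype differed by 0.24 in Cilia-deleted and 0.74 in Control. The difference of -2.13 (SE 0.26, 95% interval -2.76 to -1.49, n = 2 per group) is 4.36-fold lower in Cilia-deleted. The adjusted p from limma was 0.162, so the gene did not pass over all genes. It ranked 23rd of the 18193 genes by p and 7th from the lowest difference. The difference was -2.25 without Cilia-deleted 1, -2.004 without Cilia-deleted 2, -1.75 without Control 1 and -2.497 without Control 2. Where an array is left out, the lone array of its group is taken to vary like the other group. Such fits are therefore given by their differences only.

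The numeric steps of the deposited values allow a coarse statement about brightness, inferred from the numbers and stated in no label. They place the lowest original value of the Itgb8 probe set under 4 on the log2 scale. Cilia-deleted 2 then lay under 4 and Cilia-deleted 1 under 4.24, against under 6.62 for Control 1 and under 5.87 for Control 2. Of the 45037 probe sets tested, 16.4% fell in this dimmest class, and so did 16 of the 102 that read adhesion genes. Whether the Itgb8 signal of the Cilia-deleted arrays was above background was not tested.

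Itgav encodes the alpha subunit that pairs with several beta subunits and binds the RGD sequence of fibronectin, vitronectin and latent TGF-beta (chromosome 2, 83722303 to 83806917). The mean of its 5 probe sets was at -0.04 and 0.04 in the Cilia-deleted arrays, against -0.09 and 0.06 in the Control arrays. The groups overlapped. The difference was 0.01 (SE 0.13, 95% interval -0.31 to 0.34, limma adjusted p = 1.0), and the single probe sets differed by -0.10 to 0.20. The interval of Itgb8 lies wholly below that of Itgav, and the difference between both genes was not tested.

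**Figure D1:**
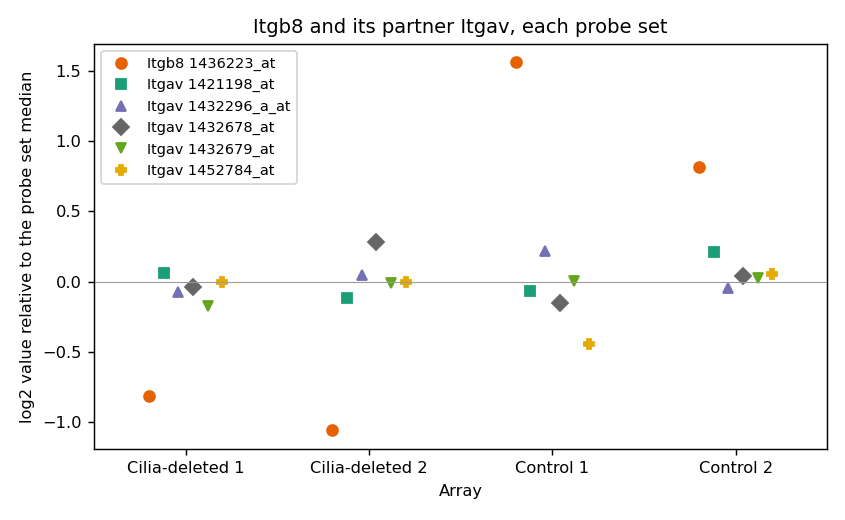
Each point is the log2 value of 1 probe set on 1 array, relative to that probe set's median over the 4 arrays, for the single probe set of Itgb8 and the 5 of Itgav. The Itgb8 points lie at -0.82 and -1.06 in Cilia-deleted and at 1.56 and 0.82 in Control, while the Itgav probe sets differ between the groups by -0.10 to 0.20.

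Apart from Itgb8, the other 40 genes lay between 1.31-fold lower and 1.26-fold higher in Cilia-deleted (differences of -0.39 to 0.34). Counting all members, 20 differences were above 0 and 21 below, with a median of -0.01, beside a median of -0.01 over all genes. The 95% interval lay within a change of 2-fold in 40 of the 41, where it did in 95.0% of all genes, and the largest fold that any of these intervals allows was 1.86. A difference of at least 0.5 in size was found in 1 of 41, which is Itgb8, where 4.16% of all genes had one. The SD of the difference over these 40 genes was 0.16, beside 0.25 over all genes. Over the same 40 genes the SD of Cilia-deleted 1 minus Cilia-deleted 2 was 0.23 and that of Control 1 minus Control 2 was 0.25, which are differences between single arrays and so are wider by construction than a difference between group means. Leaving out 1 array turned the sign or moved the difference by over 1.5 times in 35 of the 41 genes, all but Itgb8, Itga6, Ilk, Itgae, Ddr2 and Zyx, and turned the sign in 19. The shares over all genes are not given, so neither count sets the members apart from other genes.

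An unadjusted p under 0.05 was found for 2 of the 41, Itgb8 and Itga6, where 5.96% of all genes had one. With groups that do not overlap as well, this is 1 gene lower (3.68% of all genes) and 1 gene higher (2.29%). The groups did not overlap in 17 members, 8 higher and 9 lower, which is 41.5% of them, where 33.3% of all genes had groups apart. By single probe set, 6 of the 102 had an unadjusted p under 0.05 (6.17% of all probe sets). Besides that of Itgb8, these were 1 each of Itga6, Itga1 and Lims1, higher by 0.42, 0.45 and 0.41, and 1 each of Bcar1 and Fermt3, lower by 0.45 and 0.51. The lowest adjusted p among the last 5 was 0.756.

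**Figure D2:**
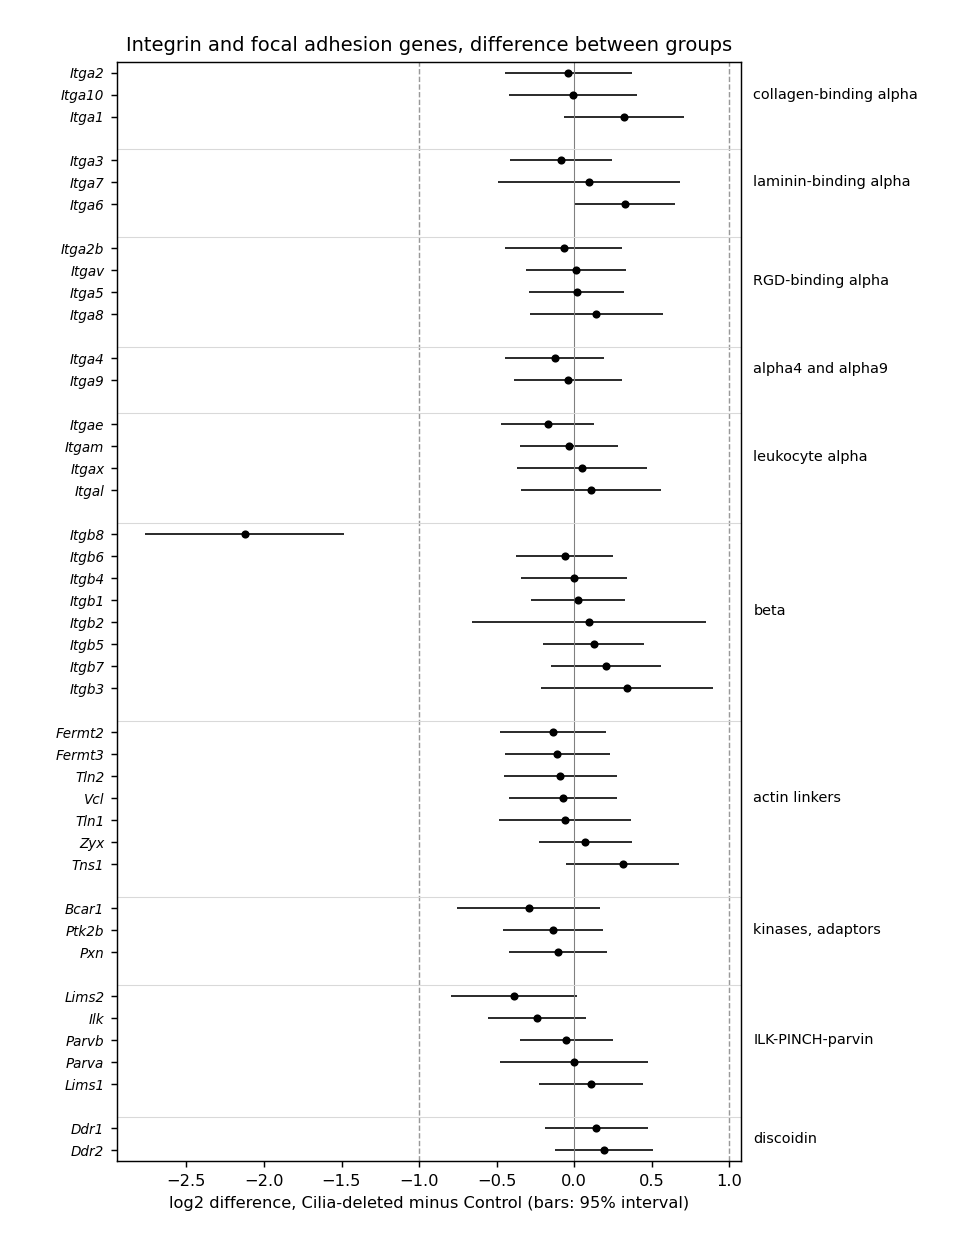
Log2 difference of each gene, Cilia-deleted minus Control, grouped by role, with its 95% interval from limma (n = 2 arrays per group) and dashed lines at a change of 2-fold. Itgb8 lies at -2.13 with its interval beyond the line, and the other 40 genes lie between -0.39 and 0.34.

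**Figure D3:**
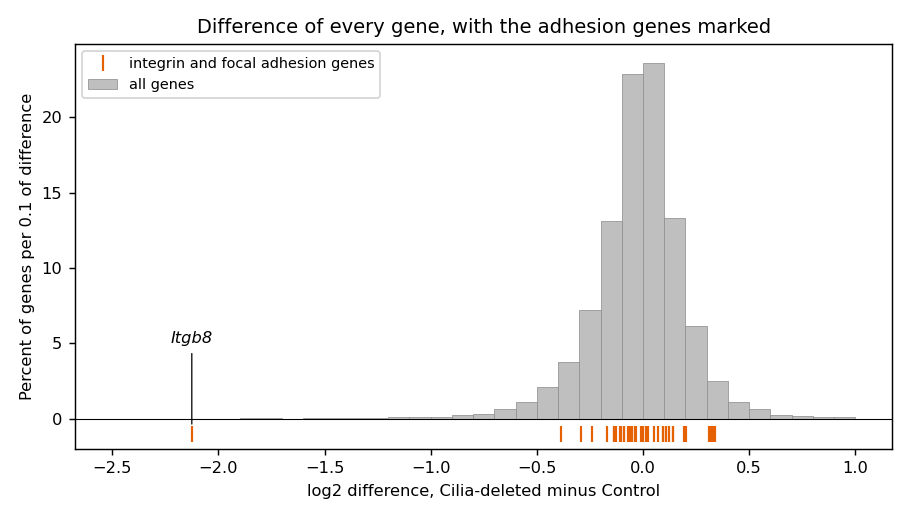
Bars give the percent of all 18193 genes in each step of 0.1 of the log2 difference, Cilia-deleted minus Control, from -2.5 to 1.0 (genes beyond these ends are not drawn), and ticks mark the 41 integrin and focal adhesion genes. Itgb8 ranks 7th from the lowest of all genes, and the other marked genes lie in the central part, near the median of -0.01.

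Among the alpha subunits that bind collagen, 3 of 4 were measured and 0 passed. Itga10, the subunit most used by chondrocytes to bind type II collagen, was at 0.15 and -0.16 in the Cilia-deleted arrays, against 0.12 and -0.12 in the Control arrays. The groups overlapped fully, and the difference was -0.01 (SE 0.17, 95% interval -0.42 to 0.40). Itga1, which binds type IV and other collagens, was at 0.12 and 0.08 in the Cilia-deleted arrays, against -0.05 and -0.39 in the Control arrays. Both Cilia-deleted arrays were higher, with a difference of 0.32 (SE 0.16, limma adjusted p = 0.884), and Control 2 was far from the rest, so that it was 0.15 without Control 2 and 0.49 without Control 1. Itga2 was at 0.15 and -0.22 in the Cilia-deleted arrays, against -0.06 and 0.06 in the Control arrays. Here the Cilia-deleted arrays lay on both sides of the Control arrays (difference -0.04). Itga10 turned to 0.15 without Cilia-deleted 2 and to 0.11 without Control 1, and Itga2 turned to 0.15 without Cilia-deleted 2 and to 0.02 without Control 2.

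The discoidin domain receptors, tyrosine kinases that bind collagen without being integrins, both had groups apart and higher in Cilia-deleted, where 33.3% of all genes had groups apart in either direction. Ddr2, a receptor for fibrillar collagen that growth plate cartilage needs for normal growth, was at 0.05 and 0.11 in the Cilia-deleted arrays, against -0.05 and -0.18 in the Control arrays (difference 0.19, SE 0.13, limma adjusted p = 0.940). Ddr1, found mostly in epithelia, was at 0.01 and 0.17 in the Cilia-deleted arrays, against -0.10 and 0.00 in the Control arrays (difference 0.14, SE 0.13). The gap between the groups was 0.01 for Ddr1, and its 8 probe sets differed by -0.07 to 0.38.

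Of the laminin-binding alpha subunits all 3 were measured, and 0 passed. Itga6, which pairs with Itgb1 or Itgb4, was at 0.12 and 0.16 in the Cilia-deleted arrays, against -0.11 and -0.27 in the Control arrays. Both probe sets were higher in Cilia-deleted, by 0.24 and 0.42. The difference of 0.33 (SE 0.13, 95% interval 0.01 to 0.65) had an unadjusted p of 0.0467 and a limma adjusted p of 0.830, and it was higher in both arrays. Itga3 was at -0.11 and 0.01 in the Cilia-deleted arrays, against -0.03 and 0.11 in the Control arrays, which overlap (difference -0.09). Itga7, the laminin receptor of muscle, had a difference of 0.10 with an SE of 0.24, and its groups overlapped.

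Of the alpha subunits that bind the RGD sequence, 4 were measured and in none were the groups apart (33.3% of all genes had groups apart). Itga5, the alpha subunit of the main fibronectin receptor, was at 0.02 and -0.01 in the Cilia-deleted arrays, against 0.03 and -0.05 in the Control arrays. Its difference was 0.02 (SE 0.12, 95% interval -0.29 to 0.32), so a change beyond 0.32 in either direction lies outside its interval. Itga8, a partner of Itgb1 that binds nephronectin, was at -0.08 and 0.17 in the Cilia-deleted arrays, against -0.27 and 0.07 in the Control arrays (difference 0.14, SE 0.17). Itga2b, the platelet fibrinogen receptor subunit, was at -0.22 and 0.08 in the Cilia-deleted arrays, against 0.05 and -0.05 in the Control arrays (difference -0.07). These genes kept no order between the groups, since a single array set the sign of Itga8 (-0.03 without Control 1), of Itga2b (0.08 without Cilia-deleted 1) and of Itga5 (-0.03 without Control 2).

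Itga4 and Itga9, which bind fibronectin splice segments, VCAM and tenascin, were both below 0. Itga4 was at -0.07 and 0.02 in the Cilia-deleted arrays, against 0.05 and 0.16 in the Control arrays (difference -0.13, SE 0.13, limma adjusted p = 0.984). Its groups were apart, but 4 of its 5 probe sets were below 0 and 1 of them, at -0.53, carried most of the mean. Itga9 had a difference of -0.04 and overlapping groups.

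The alpha subunits found on leukocytes are a sign of blood cells in a dissected sample, and 4 of 5 were measured. Itgae, carried by T cells of epithelia, was at -0.10 and -0.11 in the Cilia-deleted arrays, against 0.04 and 0.09 in the Control arrays (difference -0.17, SE 0.12). Itgal was at -0.03 and 0.03 in the Cilia-deleted arrays, against -0.34 and 0.12 in the Control arrays, so that both Cilia-deleted arrays lay between the Control arrays (difference 0.11, and -0.12 without Control 1). Itgam and Itgax, the subunits of the complement receptors, differed by -0.03 and 0.05. Itgb2, the beta partner of Itgal, Itgam and Itgax, was at -0.16 and 0.16 in the Cilia-deleted arrays, against -0.55 and 0.36 in the Control arrays. The Control arrays were 0.91 apart in Itgb2, and its interval of -0.66 to 0.85 was the widest of the 41 genes, for which it is named here after its values were seen. Of 14 haematopoietic markers 13 were measured, with 6 above and 7 below 0 and 0 with groups apart (33.3% of all genes). Their array medians were -0.02 and 0.07 in Cilia-deleted, against -0.29 and 0.33 in Control. Their part in the leukocyte integrin values was not tested.

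Of the 8 beta subunits, 6 were above 0 and 2 below. Itgb1, the partner of most alpha subunits of chondrocytes, was at 0.06 and -0.02 in the Cilia-deleted arrays, against 0.01 and -0.01 in the Control arrays. Its 6 probe sets lay on both sides of 0, between -0.17 and 0.18, and the difference was 0.02 (SE 0.12, 95% interval -0.28 to 0.33). Itgb3, which pairs with Itgav and Itga2b, was at -0.03 and 0.59 in the Cilia-deleted arrays, against -0.16 and 0.04 in the Control arrays. Its difference of 0.34 (SE 0.22), the highest of the members, rested on Cilia-deleted 2, where 1 of its 2 probe sets stood at 1.15, and it was 0.03 without that array and 0.65 without Cilia-deleted 1.

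The other beta subunits that pair with Itgav were Itgb5 and Itgb6. Itgb5, a vitronectin receptor subunit, had all 4 probe sets above 0 and groups apart (difference 0.12, SE 0.13). Itgb6, which like Itgb8 serves to free TGF-beta but in epithelia, had a difference of -0.06 (SE 0.13, 95% interval -0.37 to 0.25), and both of its probe sets were in the dimmest class. Itgb7, a lymphocyte subunit, had groups apart and a difference of 0.20 (SE 0.14). Itgb4, the hemidesmosome subunit, differed by 0.00 with overlapping groups. Among the 6 subunits of the Itgav dimers, a size above 0.5 was therefore seen in Itgb8 alone, the intervals of Itgav, Itgb1, Itgb5 and Itgb6 reach no lower than -0.37 and no higher than 0.45, and that of Itgb3 runs from -0.21 to 0.89.

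**Figure D4:**
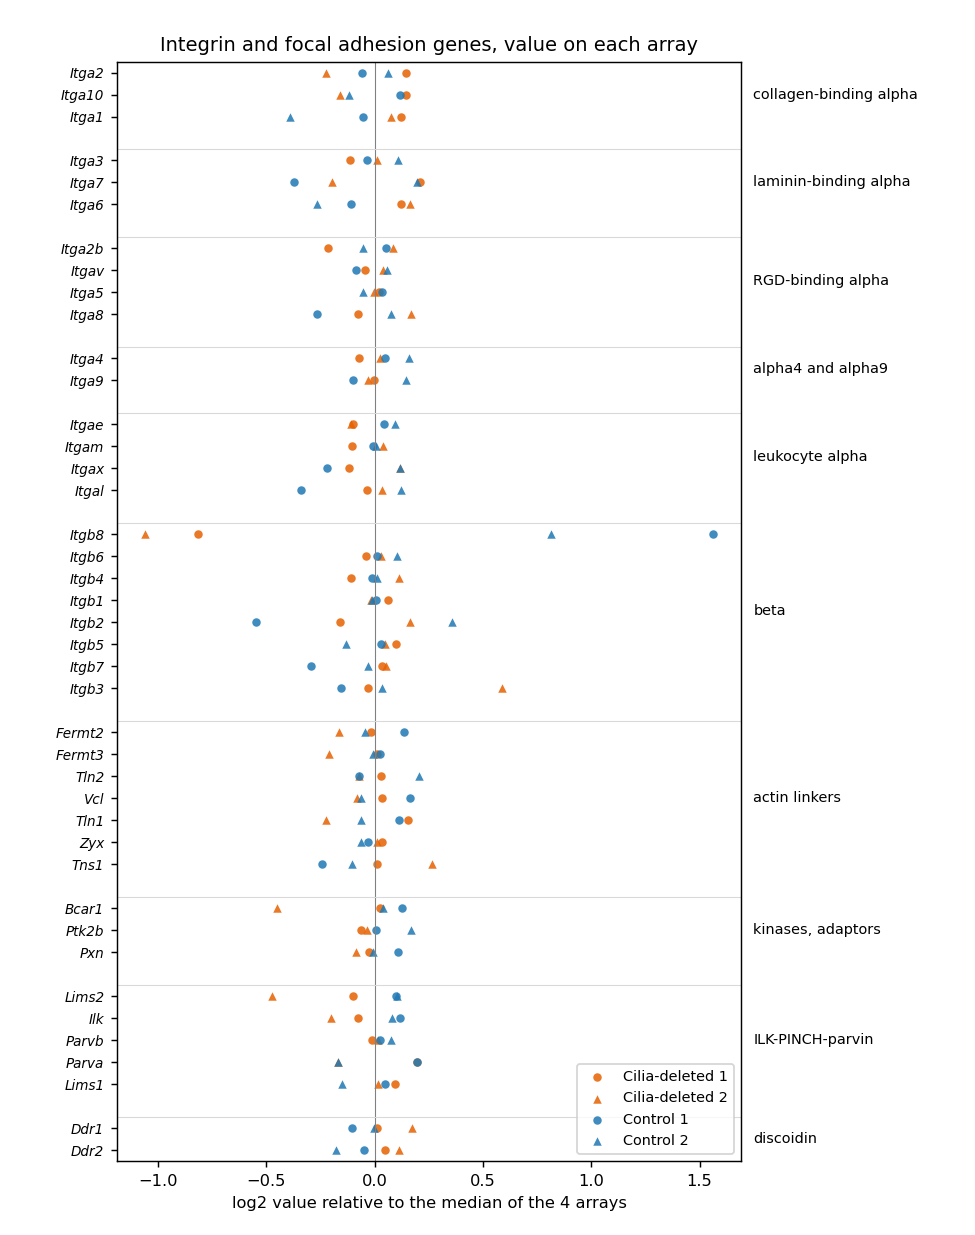
The log2 value of each of the 41 genes on each array, relative to the median over the 4 arrays, with genes grouped by role, Cilia-deleted arrays in orange and Control arrays in blue (circle, array 1 and triangle, array 2). Itgb8 lies at -0.82 and -1.06 in Cilia-deleted and at 1.56 and 0.82 in Control, and most other points lie close to 0 with the colours mixed.

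Talins, kindlins and the proteins that tie integrins to actin were measured in 7 of 8 cases, with 2 above 0 and 5 below, and 0 passed. Tln1, the talin that activates integrins in most cells, was at 0.15 and -0.23 in the Cilia-deleted arrays, against 0.11 and -0.06 in the Control arrays (difference -0.06, SE 0.17, 95% interval -0.48 to 0.36). Vcl, the vinculin that binds talin under load, was at 0.03 and -0.08 in the Cilia-deleted arrays, against 0.16 and -0.06 in the Control arrays (difference -0.07, SE 0.14). In both genes the groups overlapped, and the sign turned without Control 1 (0.03 for Tln1 and 0.04 for Vcl).

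Tns1, a tensin that binds integrin tails and actin in mature adhesions, was at 0.01 and 0.27 in the Cilia-deleted arrays, against -0.24 and -0.11 in the Control arrays. All 3 of its probe sets were higher in Cilia-deleted, by 0.14 to 0.44, and the difference was 0.31 (SE 0.15, limma adjusted p = 0.881). Fermt2, the kindlin of most non-blood cells, was at -0.02 and -0.16 in the Cilia-deleted arrays, against 0.14 and -0.04 in the Control arrays (difference -0.14, SE 0.14), which overlap. Fermt3, the kindlin of blood cells, differed by -0.11 with probe sets between -0.51 and 0.41, and Tln2 by -0.09. Zyx, which gathers at adhesions under tension, had groups apart at a difference of 0.07.

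The signalling adaptors and kinases measured, 3 of 4, were all below 0 with groups apart, as they were in 1 direction or the other in 33.3% of all genes. Bcar1, the adaptor p130Cas that is stretched and phosphorylated at adhesions, was at 0.02 and -0.45 in the Cilia-deleted arrays, against 0.13 and 0.04 in the Control arrays. The groups were apart by only 0.01, and the difference of -0.29 (SE 0.19) was -0.06 without Cilia-deleted 2. Pxn, the scaffold paxillin, was at -0.03 and -0.08 in the Cilia-deleted arrays, against 0.11 and -0.01 in the Control arrays (difference -0.10, SE 0.13, limma adjusted p = 0.996). Ptk2b, the kinase related to focal adhesion kinase, differed by -0.13 (SE 0.13).

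In the complex of ILK, PINCH and parvin, which links beta tails to actin, all 5 genes were measured, with 2 above 0 and 3 below, and 0 passed. Lims2, the gene of PINCH2, was at -0.10 and -0.47 in the Cilia-deleted arrays, against 0.10 and 0.10 in the Control arrays. Both Cilia-deleted arrays were lower, and the difference of -0.39 (SE 0.16, 95% interval -0.79 to 0.02, limma adjusted p = 0.831) was the lowest of the 40 genes, with -0.20 without Cilia-deleted 2. Lims1, the gene of PINCH1, was at 0.10 and 0.01 in the Cilia-deleted arrays, against 0.05 and -0.15 in the Control arrays, with overlapping groups and probe sets between -0.18 and 0.41 (difference 0.11).

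Ilk, the integrin-linked pseudokinase that chondrocytes need for proliferation, was at -0.08 and -0.20 in the Cilia-deleted arrays, against 0.12 and 0.08 in the Control arrays. Its groups were apart on its only probe set, with a difference of -0.24 (SE 0.13, 95% interval -0.55 to 0.08, limma adjusted p = 0.902). Parva, the parvin of most tissues, differed by 0.00, and in each genotype array 1 was at 0.19 and array 2 at -0.17. Parvb differed by -0.05.

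Genes around the integrins were read from lists that share no gene with the members, and 0 of their genes passed the threshold over all genes. Of 64 other focal adhesion genes 59 were measured, 28 above 0 and 31 below, with a median difference of -0.01, groups apart in 33.9% (33.3% of all genes) and an unadjusted p under 0.05 in 3 (5.96% of all genes). Itgb1bp1, which binds the Itgb1 tail and holds back its activation, was at -0.10 and -0.52 in the Cilia-deleted arrays, against 0.65 and 0.10 in the Control arrays (difference -0.68, SE 0.24, limma adjusted p = 0.814). Tns2, a second tensin, had a difference of -0.60 (SE 0.20), opposite in sign to Tns1. Rap1a, a small GTPase that brings talin to integrins, had one of -0.41. Above 0 with groups apart were Svil at 0.39, the actin crosslinker Flna at 0.30 and the contractility kinase Rock1 at 0.25. Each rested in part on 1 array, with Svil at 0.20 without Control 1, Flna at 0.17 without Cilia-deleted 1 and Rock1 at 0.15 without Control 2.

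Matrix proteins that integrins bind were measured in 35 of 38 cases, with 23 above 0 and 12 below, a median of 0.10, 0 past the threshold and groups apart in 25.7% (33.3% of all genes). Mfge8, an RGD protein bound by Itgav dimers, was at -0.39 and -0.67 in the Cilia-deleted arrays, against 0.39 and 0.74 in the Control arrays. Both Cilia-deleted arrays were lower, with a difference of -1.09 (SE 0.18, 2.14-fold lower, limma adjusted p = 0.312). Fn1, the gene of fibronectin, was at 1.19 and 0.08 in the Cilia-deleted arrays, against -0.37 and -0.08 in the Control arrays. Its difference of 0.86 (SE 0.36, limma adjusted p = 0.830) was 0.31 without Cilia-deleted 1 and 1.42 without Cilia-deleted 2. Edil3, another RGD protein, was at 0.30, the basement membrane protein Nid1 at 0.25, and Lama5 at -0.07. Postn, a ligand named for its distance from the rest after its values were seen, stood at 3.47 in Cilia-deleted 1 alone, where the perichondrium and fibroblast markers had their highest array median, 0.43. Postn is itself 1 of those 10 markers. In the other arrays Postn was at -0.65 in Cilia-deleted 2, against 0.65 and -1.14 in Control. The part of such cells in the Fn1 and Postn values was not tested.

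Because the dimer of Itgav and Itgb8 binds latent TGF-beta, the genes of latent TGF-beta and its activation and the target genes of the pathway are given as well. The activation list had 12 genes above 0 and 9 below among 21 measured of 22, a median of 0.06, groups apart in 38.1% (33.3% of all genes) and 0 past the threshold. Mmp2 (0.53), the proprotein convertase gene Furin (0.45) and Tgfb1 (0.22) had the lowest p among genes with groups apart and higher, and Mmp14 (-0.32), the receptor gene Tgfbr2 (-0.19) and the co-receptor gene Eng (-0.09) among those apart and lower. Tgfb1 was at 0.07 without Control 1 and 0.37 without Control 2. Mmp9, named for its distance from the rest after its values were seen, had a difference of -1.17 with overlapping groups, and it stood at 2.46 in Control 2.

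The target list had 12 above 0 and 9 below among 21 of 22, a median of 0.07, groups apart in 52.4% (33.3% of all genes), 0 past the threshold and 3 with an unadjusted p under 0.05 (5.96% of all genes). Snai2, a transcription factor of mesenchymal cells, was at 0.29 and 0.51 in the Cilia-deleted arrays, against -0.29 and -0.68 in the Control arrays (difference 0.88, SE 0.18, limma adjusted p = 0.442). Smad7, the feedback inhibitor of the receptors, was at 0.37 and 0.28 in the Cilia-deleted arrays, against -0.19 and -0.20 in the Control arrays (difference 0.52, SE 0.12, limma adjusted p = 0.583). Ski, a repressor of Smad proteins, was at 0.58, and Ccn1 and Bhlhe40 were at -0.32 and -0.41. Prg4, the lubricin of the joint surface, had a difference of -3.87 that came from Control 2 alone, at 7.52, with -0.11 without that array.

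Adhesion receptors other than integrins were measured in 19 of 19 cases, 10 above 0 and 9 below, with a median of 0.00, groups apart in 31.6% (33.3% of all genes) and 0 past the threshold. The syndecan genes Sdc1 and Sdc3 were at 0.35 and 0.18, the adhesion molecule gene Ncam1 at 0.22, and Anxa2 and Cspg4 at -0.29 and -0.21.

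**Figure D5:**
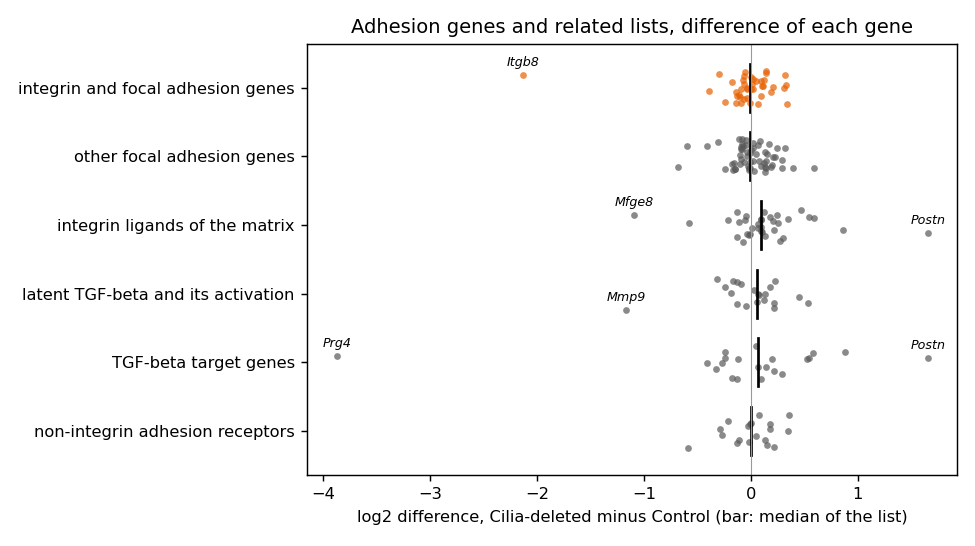
Log2 difference of each gene, Cilia-deleted minus Control, for the 41 integrin and focal adhesion genes and for 5 lists of related genes, with a bar at each median. The medians lie between -0.01 and 0.10, and Itgb8, Mfge8, Mmp9, Prg4 and Postn lie beyond 1 in size.

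Markers of other cell types near the growth plate differed between arrays as follows. Of 12 muscle genes, 10 were below 0, 1 above and 1 at 0, with a median of -0.26 and array medians of -0.03 and -0.06 in Cilia-deleted, against -0.03 and 0.31 in Control. The troponin gene Tnni2 had the lowest of these differences (-1.96, limma adjusted p = 0.0673). Tnnc2 and Mylpf, at -1.08 and -1.05, were also lower with groups apart, and Myog, at 0.09, was higher with groups apart. Of the 12 muscle genes, 3 had an unadjusted p under 0.05 (5.96% of all genes). Groups were apart in 41.7% of them (33.3% of all genes). The 8 platelet and megakaryocyte markers, which include Itga2b and Itgb3, had a median of -0.01, with array medians of -0.10 and 0.08 in Cilia-deleted, against -0.04 and 0.06 in Control. The 8 osteoclast markers, which include Itgb3, had a median of -0.17, with array medians of -0.20 and 0.19 in Cilia-deleted, against -0.20 and 0.35 in Control. Of 8 osteoblast markers 5 were measured, with a median of -0.54 and array medians of 0.45 and -0.63, against 0.08 and 0.31. The 9 endothelial markers had a median of 0.15 (arrays at -0.02 and 0.02, against -0.23 and 0.21). The 10 perichondrium and fibroblast markers had one of 0.17 (arrays at 0.43 and -0.22, against -0.21 and 0.15). In each of these lists but muscle the array medians of the groups overlapped. In muscle both Cilia-deleted medians, -0.0306 and -0.0600, lay below both Control medians, -0.0266 and 0.308. The chondrocyte marker Chad, chondroadherin, itself a ligand of integrins, was higher by 2.13 (limma adjusted p = 0.161). Of the same 10 chondrocyte markers, 8 above 0 and 2 below, Matn1 and Col9a1 were at 0.24 and 0.13. The 2 below 0 were Comp at -0.54 and Hapln1 at -0.23. The part of these cell types in the integrin values was not tested.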

How the data were processed

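Each of 4 arrays, 2 Cilia-deleted and 2 Control, gave 1 column of deposited values, and 0 columns were left unmatched to a sample. RMA, per the submitters' processing notes, made the log2 values that the authors deposited. No label gives the log base, which was inferred from the range and steps of the numbers. The median of every probe set over the 4 arrays is 0 (largest distance 5e-07), so levels are lost. Of 45101 probe sets 64 controls were left out. A gene's value is the mean over probe sets naming it alone (34945 probe sets, 18193 genes). Names come from RefSeq (GRCm38.p6) for 34741 of these probe sets and from the array annotation otherwise, and coordinates from RefSeq.

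Groups were compared with lmFit and eBayes without trend in limma 3.58.1 (R 4.3.3), two-sided, with Benjamini-Hochberg adjustment over all genes. An exact permutation test of 2 against 2 cannot go below p = 0.333. The design names biological replicates. The number of arrays limits the precision. Named per array were Itgb8, Itgav, members with an unadjusted p under 0.05 and groups apart, the largest difference per direction and role, and 10 fixed genes, of which Ptk2 is not analysed here, plus at most 3 genes per direction and list with the lowest p and groups apart. Itgb2, Parva, Postn and Mmp9 fall outside that rule, and other members are given by their differences. The members, lists and tests were chosen with earlier results of these data known. Alternatives were another normalization, other summaries and filters, the replicate number as a block, and leaving out each array. The tests were tried on simulated data.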

Additional observations from a re-analysis of the deposited data

How the results depend on the processing

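With 2 arrays per group, single arrays decide several values. The count of adhesion genes past the threshold was 0 and became 1, Itgb8, after renewed quantile normalization (-2.18, limma adjusted p = 0.0480). Tested by single probe set, the count stayed 0 after that normalization. Itgb8 ranged from -2.497 to -1.75 when each array was left out, was -2.13 (adjusted p = 0.367) with the replicate block and had an adjusted p of 0.988 without moderation. Its only probe set is in the dimmest class, so leaving that class out gives it no value. The median difference of members ranged from -0.0465 (without Control 1) to 0.00833 (without Control 2). Itgav changed sign at -0.00119 after quantile normalization, -0.00831 as a median over probe sets, -0.0280 without the dimmest class and -0.101 for its middle probe set alone, and ranged from -0.0589 to 0.0844 over arrays left out. Itga10 was at 0.0503 after quantile normalization and Tln1 at 0.0401 as a median over probe sets. The sign turned in 19 of the 41 members when 1 array was left out, and ranges are given only for members named by the rule. Besides that of Itgav, those crossing 0 were -0.16 to 0.15 for Itga10, -0.22 to 0.15 for Itga2, -0.22 to 0.0838 for Itga2b and -0.0256 to 0.0615 for Itga5. The others were -0.0276 to 0.31 for Itga8, -0.12 to 0.34 for Itgal, -0.0157 to 0.0653 for Itgb1, -0.25 to 0.13 for Tln1 and -0.18 to 0.0394 for Vcl. Genes called over all 18193 numbered 2, with 14 after quantile normalization, 4 without the dimmest class, 1 with the replicate block, 1 without moderation and 0 with genes on X and Y left out. By probe set 20 were called, with 14 after subtracting array medians, 5 with the block, 5 without X and Y and 2 without moderation. Chosen after seeing the data, the count past a difference of 0.5 was 0 without the dimmest class, where Itgb8 has no value. It was above 1 without Cilia-deleted 1 or without Control 2. The count with an interval within 2-fold ranged from 31 to 40. Shares over all genes in these fits are not given, so neither count sets the members apart from other genes. Replicate numbers share only a number (correlation of their deviations 0.139), and the block, as a paired fit, changed no member's call. The cause of these shifts was not tested. The 2 groups differ in sex-linked genes, which no fit can separate from genotype.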
